A study of Mus musculus with 7 samples.

Results

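The genes described here carry Wnt signals between cells of the uterus. They were chosen by symbol: the Wnt ligands, the Frizzled receptors with the coreceptors Lrp5 and Lrp6, the R-spondins with their receptors Lgr4, Lgr5 and Lgr6, the secreted antagonists (Sfrp, Dkk, Wif1, Notum), the acyltransferase Porcn, and Ctnnb1, Lef1, Tcf7 and Axin2. This choice took 53 of the 23282 rows of each expression table. They comprised 19 Wnt ligands, 12 Frizzled receptors and LRP coreceptors, 7 R-spondins and LGR receptors, 10 secreted antagonists, 1 acyltransferase and 4 nuclear effectors or target genes.

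Wnt proteins are lipid-modified by Porcn, leave the cell, and bind Frizzled receptors together with LRP5 or LRP6. In the canonical branch β-catenin (Ctnnb1) then escapes degradation, enters the nucleus and acts with TCF/LEF factors on targets such as Axin2, while R-spondins bound to LGR receptors keep Frizzled receptors at the cell surface and SFRP, WIF1, DKK and Notum restrain the signal. In the mouse uterus Wnt7a is known from the luminal epithelium and Wnt4 from the decidualizing stroma, and the pathway takes part in gland formation and implantation.

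Gene expression was measured by QuantSeq, which reads the 3′ ends of polyadenylated transcripts, in 7 libraries of uterine tissue from 6-week-old female C57BL/6 mice. One uterine horn received 100 ng of recombinant human CXCL12, a chemokine, in 30 µl of saline, and saline alone went into the opposite horn. The groups were 2 saline libraries, 2 CXCL12 libraries taken 3 days after infusion and 3 CXCL12 libraries taken 8 days after it. No day is given for the saline libraries, so time after infusion and CXCL12 cannot be told apart in a comparison with saline. Nothing states whether libraries with the same number came from the same animal, and p-values measure only the spread between these libraries.

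The 6 libraries deposited as counts held from 6908790 to 12308982 counts, and Day 3 replicate 1 was deposited as log2 values of normalized counts. Of 7 uterus markers, 6 (among them Pgr, Esr1, Hoxa10 and Hoxa11) were detected in every library, and Hoxa13, a gene of the lower tract, had at most 2 counts. Day 8 replicate 1, whose table name carries Day 3, correlated with the Day 3 libraries at r = 0.946 and 0.947 over 14974 genes but with the other Day 8 libraries at 0.892 and 0.893. With saline replicate 2 it correlated at 0.941, and with saline replicate 1 at 0.891. Markers of other tissues and cells also varied. The 10 ovary markers summed to 124 and 934 CPM in saline, 6.08 CPM in Day 3 replicate 2, and 82.4, 3590 and 9.73 CPM in Day 8 replicates 1 to 3. The 8 leukocyte markers summed to 337 and 290 CPM in saline, 97.0 CPM in Day 3 replicate 2 and between 91.8 and 166 CPM at Day 8. The 8 adipocyte markers summed to 845 and 2570 CPM in saline, 323 CPM in Day 3 replicate 2 and between 248 and 398 CPM at Day 8. Day 3 replicate 1, which has no CPM, stood apart from replicate 2 in adipocyte markers: their median log2 level, centred on each gene's mean, was 1.89 in replicate 1, the highest of all libraries, and −0.87 in replicate 2. For ovary markers the 2 Day 3 libraries had −2.50 and −2.65, and for leukocyte markers −0.51 and −0.64. Oviduct markers lay at −2.95 in Day 8 replicate 3 and between 0.08 and 1.00 elsewhere, and mesothelium markers at −1.63 in Day 8 replicate 1 and between −0.35 and 1.27 elsewhere. Of 10 proliferation genes, 6 were called lower at Day 8 against Day 3, 4 lower at Day 8 against saline and none at Day 3 against saline. The part of these cells and of proliferation in any difference between groups was not tested, and in bulk tissue fewer cells of a type and less RNA per cell cannot be told apart.

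A member was called at a change of at least 2-fold together with an unadjusted P under 0.05. The study also lists a cutoff on the false discovery rate, which a call here did not require. No member passed an adjusted p of 0.1 in any comparison with the libraries grouped as labelled and none left out. Gene positions are those of GENCODE M21 on GRCm38 (mm10). Levels below are log2(normalized count + 1) after quantile normalization of all 7 libraries, which understates the change of low genes, and levels of different genes are not compared because 3′ counts carry no length scale.

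The bases before the transcription start are shown for the called members that the RefSeq promoter table (GRCm38.p6) lists, namely Wnt6, Wnt11, Sfrp2 and Lef1. Each of these genes was called higher at Day 8 against Day 3. Each line gives the 250 bases upstream of a start, read 5′ to 3′ on the strand of the gene, and capitals mark the TCF/LEF core CTTTGA or its reverse complement TCAAAG. The called members not listed there are Lgr5, Rspo2, Sfrp1 and Porcn.
Wnt6 (chr1:74771642-74771891, plus strand): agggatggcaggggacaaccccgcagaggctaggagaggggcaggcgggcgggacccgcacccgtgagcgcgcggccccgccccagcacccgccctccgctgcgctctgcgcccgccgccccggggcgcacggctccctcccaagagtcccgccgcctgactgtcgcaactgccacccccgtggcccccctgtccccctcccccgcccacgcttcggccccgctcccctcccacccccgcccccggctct
Wnt11 (chr7:98834862-98835111, plus strand): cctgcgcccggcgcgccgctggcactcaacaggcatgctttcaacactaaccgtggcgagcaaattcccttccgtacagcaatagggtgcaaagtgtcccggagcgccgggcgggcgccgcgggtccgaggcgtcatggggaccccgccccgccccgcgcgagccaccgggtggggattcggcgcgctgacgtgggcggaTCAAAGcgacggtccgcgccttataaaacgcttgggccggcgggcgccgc
Sfrp2 (chr3:83766071-83766320, plus strand): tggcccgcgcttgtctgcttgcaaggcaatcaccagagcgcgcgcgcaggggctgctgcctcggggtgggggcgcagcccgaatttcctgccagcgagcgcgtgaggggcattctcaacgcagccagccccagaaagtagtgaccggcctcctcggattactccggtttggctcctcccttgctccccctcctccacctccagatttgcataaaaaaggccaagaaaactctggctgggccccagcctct
Lef1, most upstream start (chr3:131110047-131110296, plus strand): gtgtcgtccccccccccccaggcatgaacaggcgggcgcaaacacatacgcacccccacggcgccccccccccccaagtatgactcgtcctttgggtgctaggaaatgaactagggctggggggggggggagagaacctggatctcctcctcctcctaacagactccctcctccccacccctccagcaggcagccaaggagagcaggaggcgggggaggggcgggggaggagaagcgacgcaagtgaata
Lef1, most downstream start (chr3:131156044-131156293, plus strand): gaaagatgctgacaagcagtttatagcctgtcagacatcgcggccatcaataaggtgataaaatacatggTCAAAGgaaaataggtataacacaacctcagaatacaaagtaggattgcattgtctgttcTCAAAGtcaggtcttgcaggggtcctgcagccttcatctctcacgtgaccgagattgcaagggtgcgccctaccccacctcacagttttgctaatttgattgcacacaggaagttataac
The Wnt11 window shown, before the more upstream of its 2 listed starts, holds 1 core, which begins 50 bases before the start, and the window of the second start (chr7:98838595-98838844) holds none. Wnt6 and Sfrp2 hold none, and Lef1 holds 2 cores, at 180 and 120 bases, before the most downstream of its 4 listed starts and none before the other starts. Among all 32851 windows of this length, 13.8% hold the core on either strand, and 5 of the 42 windows of members do (11.9%). A match is a description of letters and not of binding.

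Of the 53 members, 12 never exceeded 9 counts in any count library and were not tested. Wnt3, Wnt3a, Wnt8a, Dkk1 and Dkk4, named here after their values were seen, had 0 counts in all 6 count libraries, which allows up to 3 counts, or 0.244 to 0.434 CPM, in each. With Sfrp5 also below the filter of the log2 fit, 41 members were tested at Day 8 against saline and 40 in the Day 3 comparisons. DKK1 and DKK4 are antagonists that block the LRP coreceptors, and neither was detectable at this depth.

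**Figure D1:**
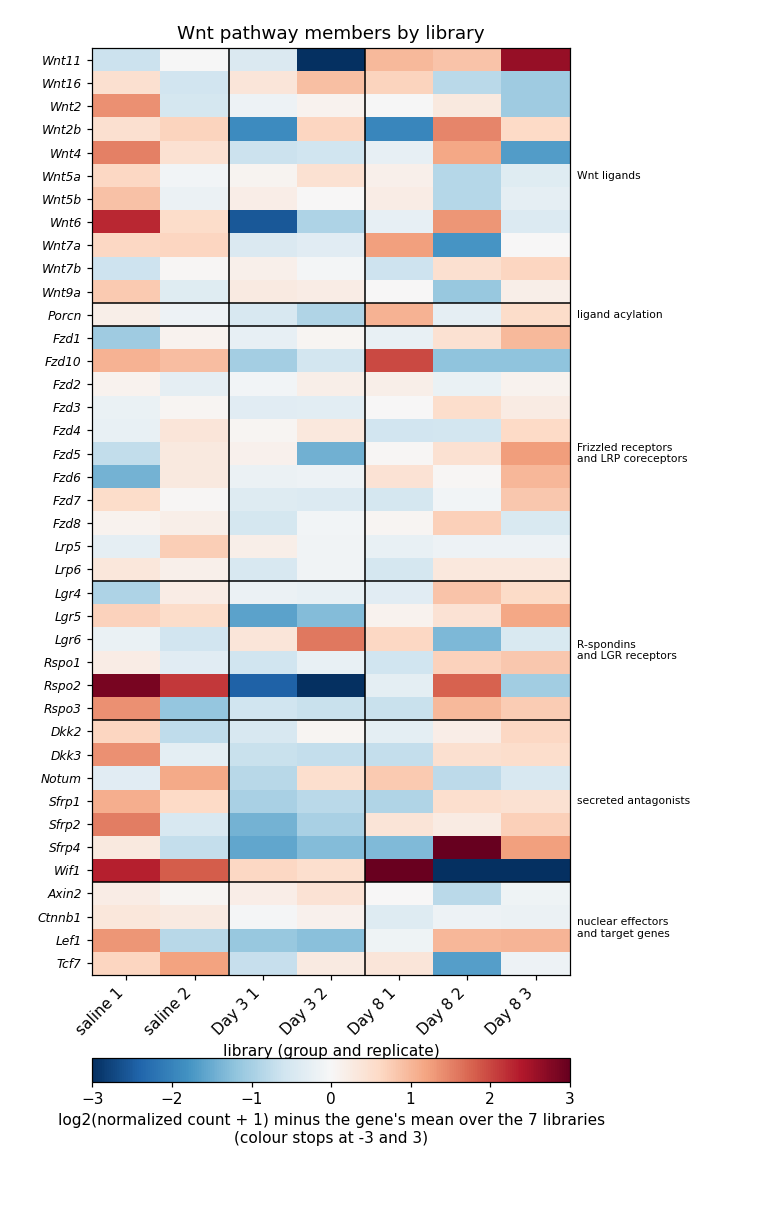
Heat map of the 40 members tested in the log2 fit, with 1 row per gene grouped by role and 1 column per library. Colour is the log2(normalized count + 1) level minus the gene's mean over the 7 libraries, and Rspo2, Lgr5, Sfrp1 and Sfrp2 are below their means in both Day 3 libraries.

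At Day 3, 5 members were called against saline and each was lower: the stem cell receptor Lgr5, the R-spondin Rspo2, the ligand Wnt6, and the antagonists Sfrp1 and Sfrp2. They were 5 of 40 members tested (12.5%), where 4.53% of all 14974 genes were called, 1.91% higher and 2.62% lower. No member was called higher. The median log2 difference was −0.49 over the members and 0.01 over all genes tested, and 30 of the 40 members were lower. Both Day 3 libraries lay outside the saline range for 20 of the 40 members, or 50%, close to the 46.4% of all genes that did. No gene reached the adjusted p of 0.1 in the limma fit of all 7 libraries as labelled. There 1102 genes and 5 members had an unadjusted P below 0.05, and the smallest adjusted p of a member was 0.62. The count of members called was 3 without saline replicate 1, 9 without saline replicate 2 and 8 without Day 8 replicate 1. Without saline replicate 2, the median log2 difference was −0.80 over the members and −0.03 over all genes, with the lone saline library assumed to vary like the other groups.

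At Day 8 against Day 3, 7 members were called and each was higher: Wnt6, Wnt11, Porcn, Lgr5, Rspo2, Sfrp2 and Lef1. This was 17.5% of the 40 members, where 4.68% of all genes were called, 2.28% higher and 2.4% lower. The median log2 difference was 0.44 over the members and 0.00 over all genes. The groups did not overlap for 13 members (32.5%), near the 31.6% of all genes. Again no gene reached the adjusted p of 0.1 in the limma fit of all 7 libraries as labelled. There 1077 genes and 7 members had an unadjusted P below 0.05. The comparison uses the same Day 3 libraries as the one with saline, so the low Day 3 levels enter both. The count of members called was 3 without Day 3 replicate 2, 4 without Day 8 replicate 2 and 12 without Day 8 replicate 1. In that last fit 9 of the 12 were higher and 3 (Lgr6, Wif1 and Wnt16) lower. Lgr5, Sfrp1, Sfrp4 and Wif1 passed the adjusted p of 0.1 there, as did 478 of all 14875 genes.

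Day 8 against saline called none of 41 members in edgeR, and none had an unadjusted P below 0.05, while 2.94% of 15388 genes were called, 1.53% higher and 1.42% lower. No gene reached the adjusted p of 0.1 in the edgeR fit of the 6 count libraries as labelled, with 656 genes at an unadjusted P below 0.05. DESeq2 called 1 member (Wnt11), and limma 1 (Rspo2). In DESeq2, 49 of all 15388 genes passed the adjusted p of 0.1, and no member did. The median log2 difference was −0.15 over the members and −0.01 over all genes, and the groups did not overlap for 6 members (14.6%) against 19.3% of all genes. The standard errors of the members ranged from 0.26 to 1.78 on the log2 scale, and Sfrp4 and Wnt11 were not called at log2 differences of 2.16 and 1.95. The count of members called was 2 without saline replicate 2, 4 without Day 8 replicate 1 and 3 without Day 8 replicate 2.

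**Figure D2:**
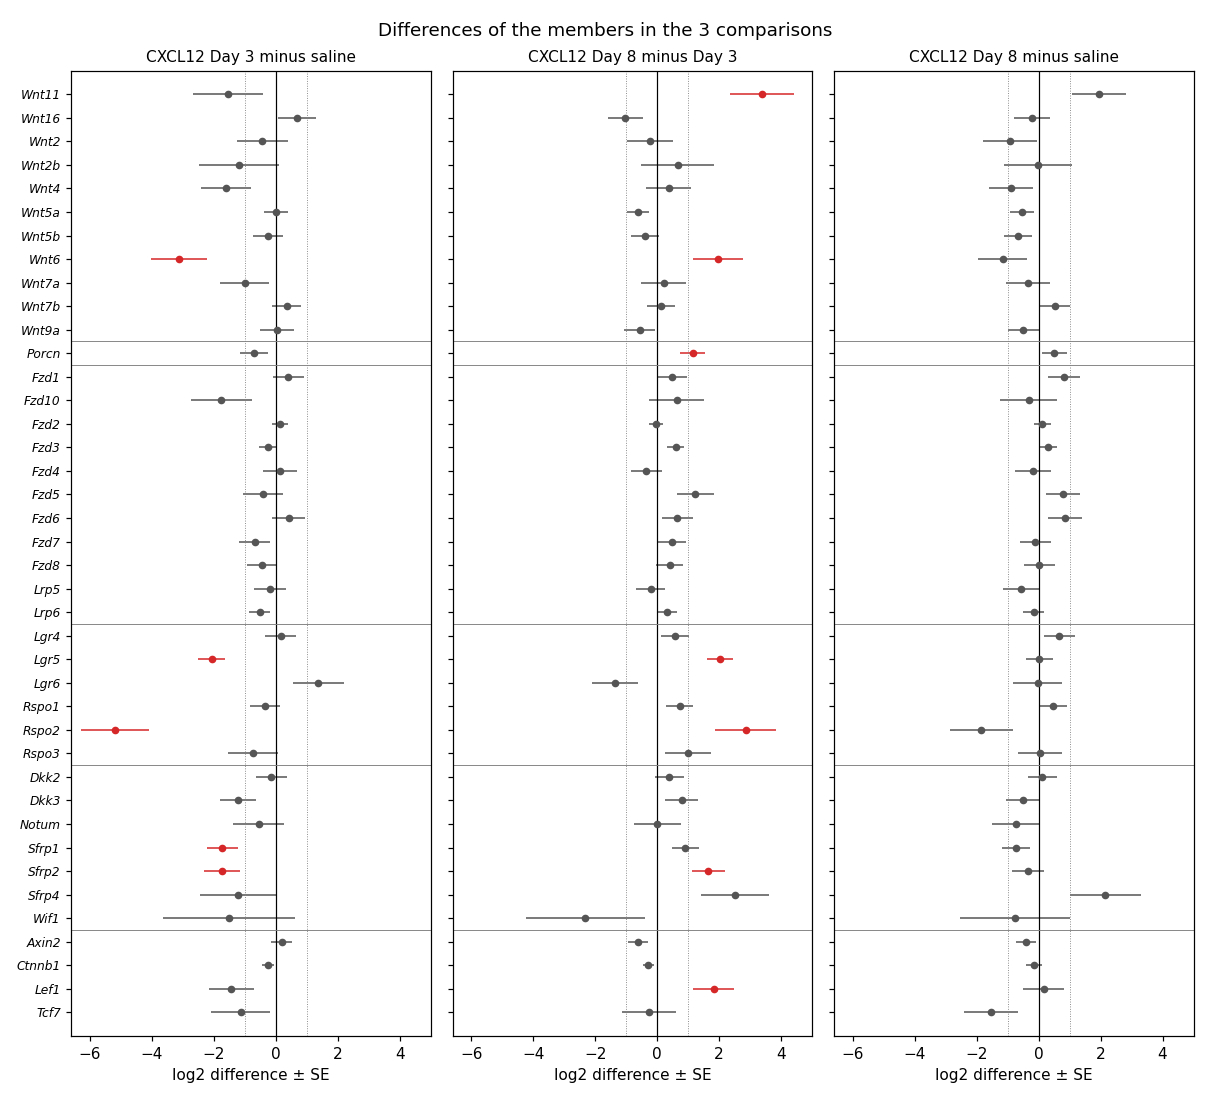
Log2 difference ± SE of the 40 members in the 3 comparisons, with limma in the left and middle panels and edgeR in the right panel; red marks called members and dotted lines a fold change of 2. The called members lie to the left at Day 3 against saline and to the right at Day 8 against Day 3, and no red point appears at Day 8 against saline.

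Among the ligands, Wnt6 (chr1:74771892-74785322, plus strand), a ligand known from the decidualizing stroma, was lowest at Day 3. Its levels were 6.84 and 5.12 in saline, 2.03 and 3.66 at Day 3, and 4.34, 5.90 and 4.16 at Day 8. Both Day 3 libraries lay below every other library. The difference from saline was −3.14 ± 0.90 (SE; limma, adjusted p = 0.62), lower in 2 of 2 Day 3 libraries, and Day 8 exceeded Day 3 by 1.96 ± 0.82 (adjusted p = 0.69). Behind these levels were 82 and 34 counts in saline, 9 in Day 3 replicate 2 and 14, 69 and 14 at Day 8. As for Rspo2 below, the count libraries with the most Wnt6 were those with the highest sums of ovary markers. The part of ovarian tissue in the Wnt6 differences was not tested. The call against saline was lost without saline replicate 1, where the difference was −2.31, and without Day 3 replicate 1. The call of Day 8 over Day 3 was lost without Day 3 replicate 1, Day 8 replicate 1 or Day 8 replicate 2, with differences down to 1.15, and also without a filter on low values (1.96) and with Day 8 replicate 1 counted with Day 3 (1.69).

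Wnt11 (chr7:98835112-98855195, plus strand), a ligand of the non-canonical branch, was highest at Day 8. It had 5 and 10 counts in saline, 0 in Day 3 replicate 2, and 14, 23 and 56 at Day 8, and its log2 level in Day 3 replicate 1 was 2.94. All Day 8 libraries lay above all others. The difference was 3.38 ± 1.03 against Day 3 (limma, adjusted p = 0.69) and 1.95 ± 0.88 against saline (edgeR, adjusted p = 0.96), with all Day 8 libraries higher. The first call rests on the library without a read: without Day 3 replicate 2 the difference was 1.90 and the call was lost. Of the sequence words of 50 bases in the last 300 bases of its transcripts, 12.1% are shared with the antisense gene Gm8398, and the counting is not stated to use strand.

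Wnt4, a ligand needed for decidualization, had levels of 9.77 and 8.71 in saline, 7.60 and 7.66 at Day 3, and 8.01, 9.42 and 6.57 at Day 8. Both Day 3 libraries were below saline, by −1.62 ± 0.80 (limma, adjusted p = 0.62), and the Day 8 libraries spanned 2.84. It was called in 4 of the other fits, among them those without quantile normalization and without Day 8 replicate 2 or 3. The count libraries with the most Wnt4 were also those with the highest sums of ovary markers, and the part of ovarian tissue was not tested. A repeat at the end of Wnt4 shares 19.1% of its 50-base words with many other genes, and reads with multiple alignments were counted, so its counts are uncertain.

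Wnt7a, the luminal epithelial ligand, had levels of 8.11 and 8.13 in saline, 7.06 and 7.16 at Day 3, and 8.73, 5.72 and 7.51 at Day 8. The difference at Day 3 was −1.01 ± 0.80 (limma, adjusted p = 0.68), and the Day 8 libraries covered more than the whole range of the other groups. Wnt5a, which acts mainly through the non-canonical branch, had levels between 9.07 and 10.54 in all 7 libraries. It differed by −0.00 ± 0.38 at Day 3 and by −0.53 ± 0.38 at Day 8 against saline, and neither was called. An antisense gene, Gm2670, shares 14.1% of the 50-base words at the Wnt5a end.

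Porcn (chrX:8193848-8206525, minus strand), the acyltransferase that prepares Wnt ligands for secretion, had levels of 7.91 and 7.58 in saline, 7.26 and 6.82 at Day 3, and 8.78, 7.47 and 8.29 at Day 8. The Day 3 libraries lay below every other library. Day 8 exceeded Day 3 by 1.14 ± 0.40 (limma, adjusted p = 0.69), while Day 3 was not called against saline at −0.71 ± 0.44 (adjusted p = 0.63). The call was lost without Day 3 replicate 2, Day 8 replicate 1 or Day 8 replicate 3, and the difference was 0.26 when Day 8 replicate 1 was counted with Day 3.

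**Figure D3:**
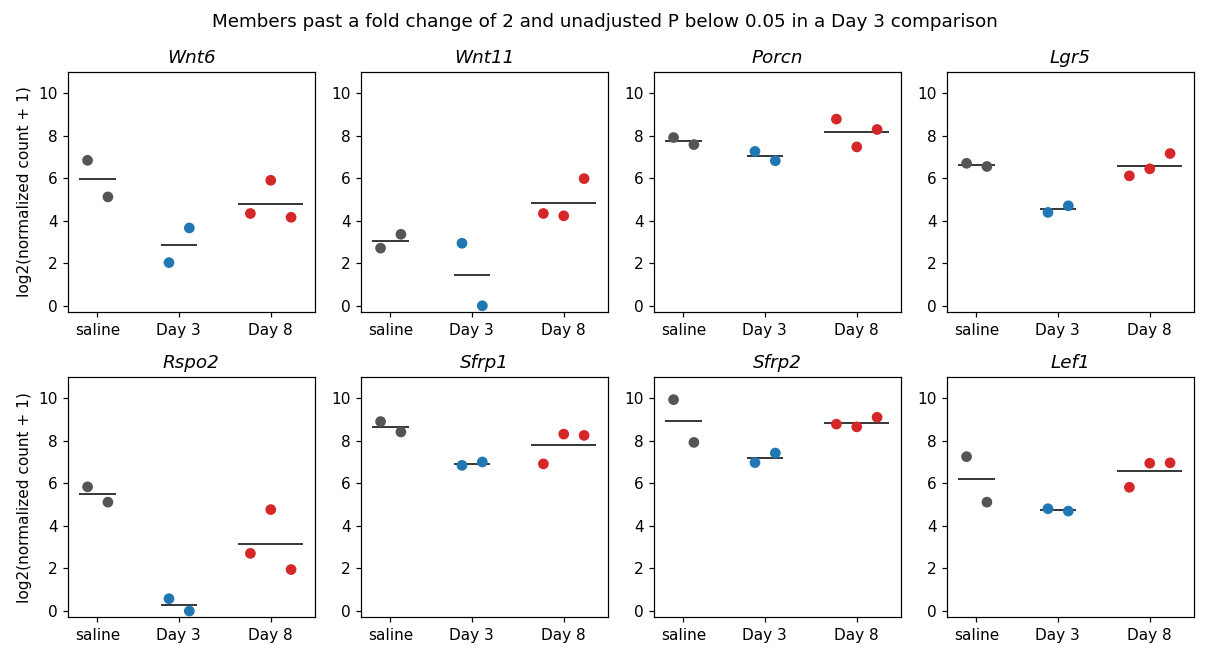
Levels of the 8 called members, as log2(normalized count + 1), with 1 point per library and a line at the group mean (2 saline, 2 Day 3 and 3 Day 8 libraries). The Day 3 points lie below all saline and Day 8 points for Lgr5, Rspo2, Wnt6, Porcn, Sfrp2 and Lef1, and for Wnt11 Day 3 replicate 2 lies at 0.

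Frizzled receptors and the LRP coreceptors yielded no call in any comparison among 11 tested, and their median log2 difference was −0.27 at Day 3 against saline, 0.48 at Day 8 against Day 3 and 0.03 at Day 8 against saline. Fzd10 had the smallest P of the class at Day 3, with 140 and 172 counts in saline, 53 in Day 3 replicate 2, and 284, 49 and 35 at Day 8, and a level of 5.53 in Day 3 replicate 1. Its Day 3 difference was −1.77 ± 0.98 (limma, adjusted p = 0.62), and the log2 level of Day 8 replicate 1 lay 3.18 above those of replicates 2 and 3. Fzd3 was steadier. Its levels were 7.93 and 8.20 in saline, 7.79 and 7.81 at Day 3, and 8.14, 8.66 and 8.38 at Day 8, and Day 8 exceeded Day 3 by 0.59 ± 0.26 (limma, adjusted p = 0.70). Fzd1, with levels of 6.35 and 7.52 in saline, 7.17 and 7.48 at Day 3, and 7.19, 7.87 and 8.39 at Day 8, had the smallest P of the class at Day 8 against saline (0.82 ± 0.51, edgeR, adjusted p = 0.96).

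Lgr5 (chr10:115450311-115587780, minus strand), an R-spondin receptor known as a marker of stem cells and of the uterine gland epithelium, was called lower at Day 3 in every fit. Its levels were 6.70 and 6.55 in saline, 4.39 and 4.70 at Day 3, and 6.11, 6.44 and 7.16 at Day 8. The counts were 74 and 91 in saline, 20 in Day 3 replicate 2, and 51, 98 and 129 at Day 8. The Day 3 libraries lay below all others, and saline lay within the range of Day 8. Day 3 was lower than saline by −2.08 ± 0.45 (limma, adjusted p = 0.62) and Day 8 higher than Day 3 by 2.02 ± 0.41 (adjusted p = 0.65). Day 8 against saline gave 0.03 ± 0.45 (edgeR, adjusted p = 1.00). Both calls at Day 3 were kept in each of the 7 other settings and in each of the 7 fits that left out a library, with differences from −2.47 to −1.56 and from 1.71 to 2.30. Lgr4 and Lgr6, the other receptors of the class, were not called, at 0.16 ± 0.50 and 1.36 ± 0.82 for Day 3 against saline.

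Rspo2 (chr15:43020794-43170826, minus strand), an R-spondin also made by the oocyte, had 42 and 34 counts in saline, 0 in Day 3 replicate 2, and 4, 33 and 2 at Day 8. Its level in Day 3 replicate 1 was 0.58, which stands for 0 estimated reads. The saline mean exceeded Day 3 replicate 2 at least 13.5-fold, taking 3 counts as the floor, and the Day 8 mean exceeded it at least 3.64-fold. The fitted differences were −5.19 ± 1.09 for Day 3 against saline (limma, adjusted p = 0.62) and 2.85 ± 0.99 for Day 8 against Day 3 (adjusted p = 0.69), and their size depends on the pseudocount. Against saline the call was kept in each of the 7 fits that left out a library, and the call of Day 8 over Day 3 was lost without Day 3 replicate 2 or Day 8 replicate 2. Of the 6 count libraries, the 4 with the highest sums of the 10 ovary markers, from 82.4 to 3590 CPM, were the 4 with the highest Rspo2 level. Among these 4 the order differed. Saline replicate 1, at 124 CPM of ovary markers, had 5.19 CPM of Rspo2, and Day 8 replicate 2, at 3590 CPM, had 2.75 CPM. The same 4 libraries had the highest Wnt6 and Wnt4 levels of the count libraries. In Day 3 replicate 2, where Rspo2 was at 0, 8 of the 10 ovary markers were at 0, among them Cyp11a1, Cyp17a1, Hsd3b1, Lhcgr and Oosp1, and 8 were at 0 estimated reads in Day 3 replicate 1. The part of ovarian tissue in the Rspo2 difference was not tested. Rspo1 and Rspo3 were not called in any comparison, and Rspo3 had 1620 and 413 counts in the saline libraries.

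The antagonists Sfrp1 and Sfrp2, which bind Wnt ligands outside the cell, were both lower at Day 3. Sfrp1 (chr8:23411502-23449632, plus strand) had levels of 8.91 and 8.42 in saline, 6.85 and 7.01 at Day 3, and 6.92, 8.32 and 8.26 at Day 8. The Day 3 difference was −1.73 ± 0.49 (limma, adjusted p = 0.62), lower in 2 of 2 libraries, and the call was kept in each of the 7 other settings and in each of the 7 fits that left out a library. Day 8 replicate 1 lay between the Day 3 libraries, and the remaining Day 8 libraries lay below saline by less than the distance to Day 3. Day 8 against Day 3 gave 0.90 ± 0.44 (adjusted p = 0.71).

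Sfrp2 (chr3:83766321-83774316, plus strand) had levels of 9.94 and 7.93 in saline, 6.98 and 7.43 at Day 3, and 8.79, 8.66 and 9.11 at Day 8. Both Day 3 libraries lay below every other library. The difference from saline was −1.73 ± 0.58 (limma, adjusted p = 0.62), and Day 8 exceeded Day 3 by 1.65 ± 0.53 (adjusted p = 0.69). The difference from saline moved between −2.74 without saline replicate 2 and −0.72 without saline replicate 1, where the call was lost, as it was without Day 3 replicate 1. The call of Day 8 over Day 3 was also lost without Day 3 replicate 1. The antisense gene Gm26771 shares 14.4% of the 50-base words at the Sfrp2 end.

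Sfrp4, a stromal antagonist of the same family, separated the Day 8 libraries. Its counts were 319 and 214 in saline, 126 in Day 3 replicate 2, and 110, 3778 and 738 at Day 8, with levels of 8.79 and 7.79, 6.94 and 7.20, and 7.17, 11.84 and 9.73. Day 8 replicates 2 and 3 lay above every other library, and Day 8 replicate 1 lay with Day 3. Replicate 2, with the most Sfrp4, also had the highest sum of ovary markers (3590 CPM). Replicate 3, with the next highest Sfrp4 level, had 9.73 CPM of ovary markers. The part of ovarian tissue in the Sfrp4 levels was not tested. No comparison called Sfrp4: the differences were 2.16 ± 1.14 for Day 8 against saline (edgeR, adjusted p = 0.96) and 2.51 ± 1.11 against Day 3 (limma, adjusted p = 0.70). Without Day 8 replicate 1, Sfrp4 was called in both.

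Wif1, an antagonist that binds Wnt ligands directly, is described here after its values were seen. It had 63 and 59 counts in saline, 19 in Day 3 replicate 2, 102 in Day 8 replicate 1, and 0 in Day 8 replicates 2 and 3. Those 2 libraries held 12308982 and 9941132 counts, so that a floor of 3 counts corresponds to 0.244 and 0.302 CPM. The spread within Day 8 left a difference of −0.77 ± 1.78 against saline (edgeR, adjusted p = 0.97). Notum, a secreted deacylase that inactivates Wnt ligands, had between 11 and 43 counts and was not called, with −0.56 ± 0.83 at Day 3 and −0.74 ± 0.75 at Day 8 against saline.

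Hormone-induced genes of the uterus divided the Day 8 libraries in the same way as Wif1 and Sfrp4. The median of 10 progesterone-induced genes, centred on each gene's mean, was −0.17 in Day 8 replicate 1 but 1.77 and 2.05 in replicates 2 and 3, and lay between −1.04 and −0.60 in saline and Day 3. The median of 11 estrogen-induced genes was 1.04 in Day 8 replicate 1, −1.94 and −1.79 in replicates 2 and 3, 1.65 and 1.34 at Day 3, and −0.26 and 0.66 in saline. Prss28, a serine peptidase of the progesterone-induced list, had 1511 and 1854 counts in Day 8 replicates 2 and 3, the libraries in which Wif1 had 0, and 0 counts in the other 4 count libraries. Other lists divided the Day 8 libraries likewise. In Day 8 replicates 1 to 3 smooth muscle markers had medians of −0.69, 0.82 and 0.69, and endothelium markers −0.46, 0.54 and 0.53. Mesothelium markers had −1.63, 0.64 and 1.27, and proliferation genes 0.22, −1.13 and −1.29. Ovary and oviduct markers did not set replicate 1 apart in this way. The parts of hormonal state and of these cells in the levels of the members were not tested.

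**Figure D4:**
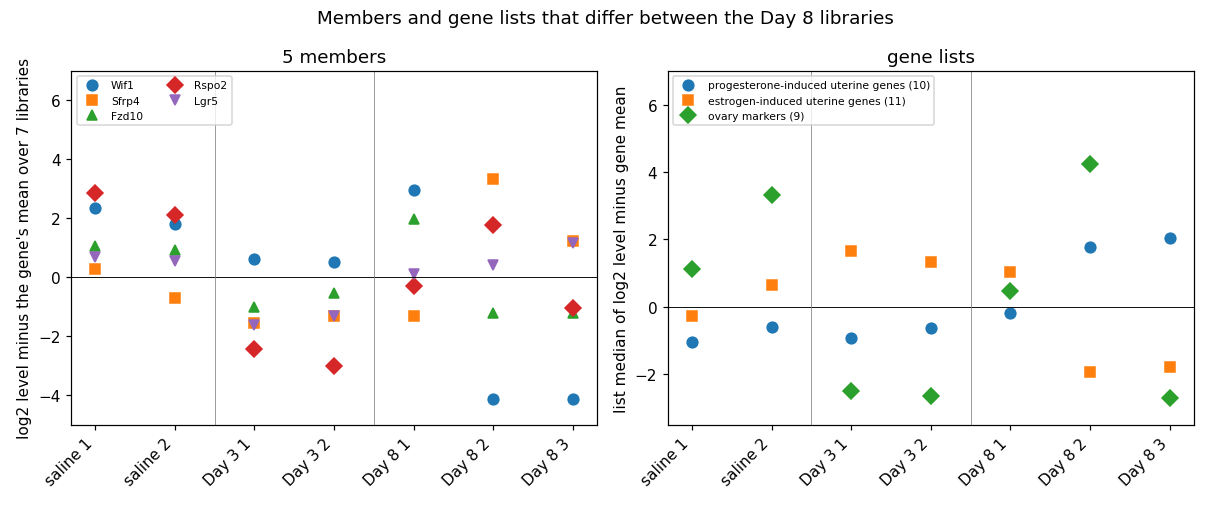
Levels in the 7 libraries of 5 members (left) and list medians of log2 levels (right), each centred on the gene's mean over the libraries. In Day 8 replicates 2 and 3 Wif1 is lowest and the progesterone-induced list highest, and Rspo2 is lowest in the Day 3 libraries, where the ovary markers are near their lowest.

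Of the nuclear effectors, Lef1 (chr3:131110471-131224356, plus strand) was highest at Day 8 and in saline replicate 1. The levels were 7.26 and 5.12 in saline, 4.81 and 4.70 at Day 3, and 5.82, 6.95 and 6.97 at Day 8. The Day 3 libraries lay below all others, but the 2 saline libraries differed by 2.14, with replicate 2 close to the Day 3 level. Day 8 exceeded Day 3 by 1.82 ± 0.66 (limma, adjusted p = 0.69), and Day 3 against saline was not called at −1.44 ± 0.72 (adjusted p = 0.62). The call was lost without any of Day 3 replicate 1, Day 3 replicate 2, Day 8 replicate 2 or Day 8 replicate 3, with differences from 1.62 to 1.87, and was kept without Day 8 replicate 1 at 2.19. Tcf7, a factor of the same family, had between 3 and 19 counts and was not called, at −1.54 ± 0.88 for Day 8 against saline (edgeR, adjusted p = 0.96).

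Axin2, the target most often used as a readout of canonical signalling, had levels of 7.75 and 7.60 in saline, 7.74 and 7.97 at Day 3, and 7.54, 6.73 and 7.40 at Day 8. It differed from saline by 0.18 ± 0.35 at Day 3 (limma, adjusted p = 0.86) and by −0.40 ± 0.33 at Day 8 (edgeR, adjusted p = 0.96), and by −0.63 ± 0.32 between Day 8 and Day 3 (limma, adjusted p = 0.71). The Day 8 libraries lay below all others without being called. Ctnnb1, which encodes β-catenin, had between 5562 and 8545 counts and differed by −0.26 ± 0.20 at Day 3 and −0.15 ± 0.26 at Day 8 against saline. In CPM, Day 3 replicate 2 (895.8) lay above both saline libraries (738.8 and 814.8), while its log2 level lay below them. The Ctnnb1 end overlaps the opposite-strand gene Ulk4, which shares 14.7% of its 50-base words.

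The members varied more among the Day 8 libraries than within the other groups. Their median span between the highest and the lowest library was 1.29 at Day 8, 0.69 in saline and 0.27 at Day 3, on the log2 scale, where all genes tested had 0.70, 0.60 and 0.20. Day 8 has 3 libraries and the other groups 2, which widens its span. A span over 2 log2 units within Day 8 was found for 8 of the 40 members (20%) and for 11.5% of all genes.

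Beyond the members, 78 other genes of the pathway were listed by role, and 76 were in the tables. At Day 3 against saline, 6 of 69 tested were called, 1 higher and 5 lower. The DKK coreceptor gene Kremen2 was higher (3.00 ± 1.10, with at most 14 counts in any count library), and the cytoplasmic regulators Dact1 (−1.39 ± 0.53) and Tnks (−1.23 ± 0.53), the corepressor Tle4 (−1.27 ± 0.36) and the targets Sp5 (−1.84 ± 0.67) and Msx1 (−1.48 ± 0.43) were lower. At Day 8 against Day 3, 6 of 69 were called, 4 higher and 2 lower. Msx1, a transcription factor required in the receptive uterus, was higher by 1.89 ± 0.39 and Fst by 3.82 ± 1.40. The Frizzled ligand gene Ndp was higher by 1.37 ± 0.52 and Znrf3, a ubiquitin ligase that removes Frizzled receptors, by 1.00 ± 0.34. Fst is also on the progesterone-induced list. It had 23 counts in Day 3 replicate 2 and 32, 1043 and 1207 in Day 8 replicates 1 to 3. Ror2, a Wnt5a receptor, was lower by −1.20 ± 0.50 and Dkkl1 by −2.52 ± 1.01. At Day 8 against saline, 4 of 73 were called: Kremen2 (3.69 ± 1.55) and Fgf9 (1.37 ± 0.49) were higher, and Ror1 (−3.45 ± 1.31) and Tnks (−1.14 ± 0.45) lower. Ror1 had 34 and 6 counts in saline and 4, 2 and 0 at Day 8. Tnks had 263 and 120 counts in saline and 91, 110 and 96 at Day 8. The shares called were 8.70%, 8.70% and 5.48%, beside 4.53%, 4.68% and 2.94% of all genes, and none passed the adjusted p of 0.1.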

How the data were processed

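QuantSeq 3′ libraries of mouse uterus were aligned by the authors with Bowtie2, and unique and multiple alignments were counted per gene with Bedtools. The builds mm10 and hg19 stand in the submitters' processing notes, without a role. The authors deposited counts per gene symbol for 6 libraries and log2 values of normalized counts for Day 3 replicate 1. Undone, that table totalled 11003222. Of 2778 low values in it (1 to 10 reads), 98.4% came within 0.1 of a whole number after division by 1.0515, and reads estimated this way served an alternative.

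Groups came from the labels. The members, gene lists and tests were chosen with earlier results of these data known. The 6 count libraries gave the comparison of Day 8 and saline, by the quasi-likelihood F test of edgeR 4.0.16 with TMM, filterByExpr and 3 groups in the fit, and CPM were computed from them. Comparisons with Day 3 used limma 3.58.1 (eBayes with a trend) on quantile-normalized log2(normalized count + 1) values of 7 libraries, for genes with at least 10 normalized counts in at least 2 libraries. P-values were adjusted over all genes tested (Benjamini-Hochberg). An edgeR SE was taken as the log2 fold change over √F. Alternatives, run in R 4.3.3, were DESeq2 1.42.0, other normalizations and filters, a pseudocount of 0.1, edgeR on the estimated reads, a replicate block, Day 8 replicate 1 counted with Day 3, and each library left out. Lists of pathway, marker and hormone-induced genes were counted, not tested as sets. The fits were tested on simulated data.

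Named by rule were called members, the member of each role with the smallest P, and Wnt4, Wnt5a, Wnt7a, Wnt11, Sfrp4, Lgr5, Axin2, Lef1, Ctnnb1, Porcn and Notum. The common biological coefficient of variation was 42.2%. Floors of 3 counts cover counting error only.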

Additional observations from a re-analysis of the deposited data

Results flagged for a closer look

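Fzd3, Wnt11, Wnt9a and Axin2 had all Day 3 libraries on one side of the saline mean and all Day 8 libraries on the opposite side, on the log2 scale. Such a pattern was found for 4 of 40 members tested (10%) and for 5.70% of 14974 genes. The mean of Day 8 minus the mean of Day 3 was 3.38 for Wnt11, 0.59 for Fzd3, −0.56 for Wnt9a and −0.63 for Axin2. Between Day 8 and Day 3 limma called Wnt11 (adjusted p = 0.69) and none of the others, whose adjusted p was 0.70 for Fzd3, 0.80 for Wnt9a and 0.71 for Axin2. For Wnt11, Day 3 replicate 1 differed from the saline mean by −0.09, and Day 3 replicate 2, with 0 counts, by −3.03. For Wnt9a the Day 3 libraries lay 0.06 and 0.01 above the saline mean. No group had 4 libraries, so that no test for a library apart from its group was made.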

How the results depend on the processing

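At Day 8 against saline, where no member was called, limma called 1 member (Rspo2), DESeq2 1 (Wnt11), the fit without a filter 2, and 5 were called when Day 8 replicate 1 was counted with Day 3 (Fzd1, Fzd10, Sfrp4, Tcf7 and Wif1). At Day 3 against saline, where 5 were called, 10 were called without quantile normalization, which also moved the median of all genes from 0.01 to −0.26 and that of the members from −0.49 to −0.86, and 3 with at least 10 counts in every library. At Day 8 against Day 3, where 7 were called, 4 were called with at least 10 counts in every library and 11 when Day 8 replicate 1 was counted with Day 3, of which 2 (Lef1 and Lgr5) were among the 7, with 8 higher and 3 lower. There Sfrp2 was no longer called at Day 3 against saline. At Day 8 against Day 3 in that last setting, 5 of 40 members passed the adjusted p of 0.1 (Rspo1, Sfrp1, Sfrp4, Wif1 and Wnt16). So did 1380 of all 14974 genes. The cause of these changes was not tested, except that a stricter filter tests fewer members. Leaving out each library in turn gave from 0 to 4 members called at Day 8 against saline, from 3 to 9 at Day 3 against saline and from 3 to 12 at Day 8 against Day 3. A group left with 1 library was assumed to vary like the others.

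No call of a member changed its direction. A replicate block in the fits gave 0 members called at Day 8 against saline, 6 at Day 3 against saline and 5 at Day 8 against Day 3. Under the block Wnt4 was also called at Day 3 against saline, and Wnt6 (2.28) and Lef1 (1.63) were no longer called at Day 8 against Day 3. Over 14974 genes, the differences of replicate 1 and replicate 2 correlated at −0.051 between saline and Day 3. The correlation was −0.137 between saline and Day 8 and −0.022 between Day 3 and Day 8. These values cannot tell whether libraries with the same number came from the same animal, because each group gives only a single such difference. The sign of the difference held in every fit for 21 of 41 members at Day 8 against saline, 23 of 40 at Day 3 against saline and 29 of 40 at Day 8 against Day 3.

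The counts of all genes called moved with single libraries too: 453 genes at Day 8 against saline became 1527 without saline replicate 2 and 1027 without Day 8 replicate 1, but 286 without saline replicate 1, 229 without Day 8 replicate 3 and 156 with the block. The 678 genes at Day 3 against saline became 2843 without saline replicate 2, but 230 without saline replicate 1, 302 without Day 3 replicate 1 and 248 without Day 3 replicate 2. The 701 genes at Day 8 against Day 3 became 1678 without Day 8 replicate 1 and 1816 with it counted with Day 3, but 284 and 317 without Day 3 replicate 1 and 2, and 429 with the block. Depth limits the low members, since 12 never exceeded 9 counts.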

Other observations

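The members with the fewest reads had them in few libraries. Of those given here, Sfrp5 was tested at Day 8 against saline alone, where it was not called (2.20 ± 1.60 on the log2 scale), and the others passed no filter. In the fits without a filter on low values, Wnt9b was called at Day 8 against saline and at Day 3 against saline, and Sfrp5 at Day 3 against saline. Wnt10b had 9 counts in Day 8 replicate 2, the library with the highest sum of ovary markers, and at most 1 count in the other count libraries. Wnt10a had 6 counts in the same library and 0 or 1 elsewhere. Sfrp5 had 11 counts in Day 3 replicate 2 and 5 in Day 8 replicate 3, and 2 or fewer in the rest. Wnt9b had 5 and 3 counts in the saline libraries, 1 in Day 3 replicate 2 and 0 in all Day 8 libraries. Wnt8b had 6 and 9 counts in Day 8 replicates 2 and 3 and at most 3 in the other count libraries.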
